A study of Homo sapiens with 4 samples.

Results

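The genes of the mitochondrial respiratory chain that are encoded in the nucleus were followed by complex in HeyA8-MDR, a human ovarian carcinoma line resistant to several drugs, after inhibition of the microRNA miR-204-5p. Members were chosen by gene symbol: every feature whose symbol begins with one of the family prefixes of complex I (NDUFA, NDUFB, NDUFC, NDUFS, NDUFV), complex III (UQCR), complex IV (COX4I, COX5, COX6, COX7, COX8) or complex V (ATP5F1, ATP5M, ATP5P), and the SDH subunits of complex II. This gave 86 genes out of 17687 distinct symbols on the array, each with 1 feature, and 0 pseudogenes had to be left out. Of the 86, 74 encode subunits: 32 of complex I, 3 of complex II, 7 of complex III, 17 of complex IV and 15 of complex V. The prefixes also took in 8 complex I assembly factors (NDUFAF) and 4 other transcripts: the divergent non-coding NDUFV1-DT, the read-through ATP5MF-PTCD1, and UQCRHL and ATP5MGL, near copies of UQCRH and ATP5MG. Some subunits, such as SDHB, NDUFS1, UQCRFS1 and ATP5F1E, were not analysed here.

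Total RNA was hybridised to Clariom S arrays, which give 1 log2 expression value per feature. The miR204 group was 2 arrays of HeyA8-MDR cells given the miR-204-5p inhibitor, and the control group was 2 arrays of the same line given a control inhibitor. The groups rest on the sample titles and the design text, because the note on treatment gives all 4 samples the same inhibitor, that of miR-204-5p. Cells of both groups were grown in RPMI medium with 15% serum, 0.1% gentamicin and, at 300 ng/ml, paclitaxel, so every sample was under the drug the line resists, and it is a single line. No label says that the arrays came from separate cultures, so the p-values rest on a spread between arrays that could be wholly technical. The amount of miR-204-5p in the cells was not analysed here.

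Oxidative phosphorylation passes electrons from NADH through complex I, or from succinate through complex II, to coenzyme Q, on through complex III and cytochrome c to complex IV, where oxygen is reduced. Complexes I, III and IV pump protons, and complex V, the ATP synthase, lets them back to make ATP. Apart from complex II, each complex joins a part read from mitochondrial DNA to many subunits read from nuclear genes. Complex IV has tissue-restricted isoforms of several of its nuclear subunits. The targeted microRNA is shown because its inhibition is the treatment. The mature sequence, from RefSeq on GRCh38.p14, lies at chr9:70810031-70810052 on the minus strand, and capitals mark the seed, bases 2 to 8.
hsa-miR-204-5p: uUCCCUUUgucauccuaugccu

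The 86 genes had mostly lower values in the miR204 arrays, and complex V and complex III stood lowest. Over the 86 genes the median on each array was 8.125 and 8.33 in the miR204 arrays, against 8.67 and 8.62 in the controls (log2 expression). The difference, miR204 minus control, was below 0 for 75 of 86 genes on the deposited values but for 50 of 86 after the arrays were quantile-normalized again, and its median was -0.228 and -0.039 on the 2 scales. Over all 21448 features the deposited values gave a median of -0.07, with 59.2% below 0. The 86 differences ran from -0.69 for NDUFAB1 to 0.33 for COX7A1.

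No member passed an adjusted p of 0.05 in limma's test in either direction: 0 of 86 lower, where 0% of all features were called lower, and 0 of 86 higher, where 0.0513% were. The lowest adjusted p among members was 0.157. At an unadjusted p under 0.05, 18 of 86 members (20.9%) were lower, against 12.8% of all features, and 0 were higher, against 5.11% of all features. The excess over all features depended on the arrays and the scale. Lower at an unadjusted p under 0.05 were 2 members (2.33%) without control replicate 1, against 4.3% of all features, and 3 (3.49%) without control replicate 2, against 2.72%. Without miR204 replicate 1 there were 12 (14%), against 12.4%, and without miR204 replicate 2 there were 34 (39.5%), against 17.5%. After quantile normalization 3 members (3.49%) were lower, fewer than the 7.1% of all features. Both miR204 values lay below both control values for 59 of 86 members (68.6%), against 33.8% of all features. They lay above both for 3 of 86, against 16.5%. By mean level, the shares lower were 11.1% of members and 18.5% of all features under 6, and 62.5% and 46.4% at 6 to 8. At 8 to 10 they were 80.6% and 64.2%, and at 10 and above 82.4% and 71.1%. After quantile normalization the shares lower without overlap were 33.7% of members and 23.9% of all features. When limma's prior was let vary with intensity, 14 members (16.3%) passed an adjusted p of 0.05, all lower, where 6.09% of all features were called lower. With that prior after quantile normalization, 12 members (14%) were lower at an unadjusted p under 0.05, against 8.84% of all features. With 2 arrays against 2, an exact permutation test of a single gene cannot go below p = 0.333.

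**Figure D1:**
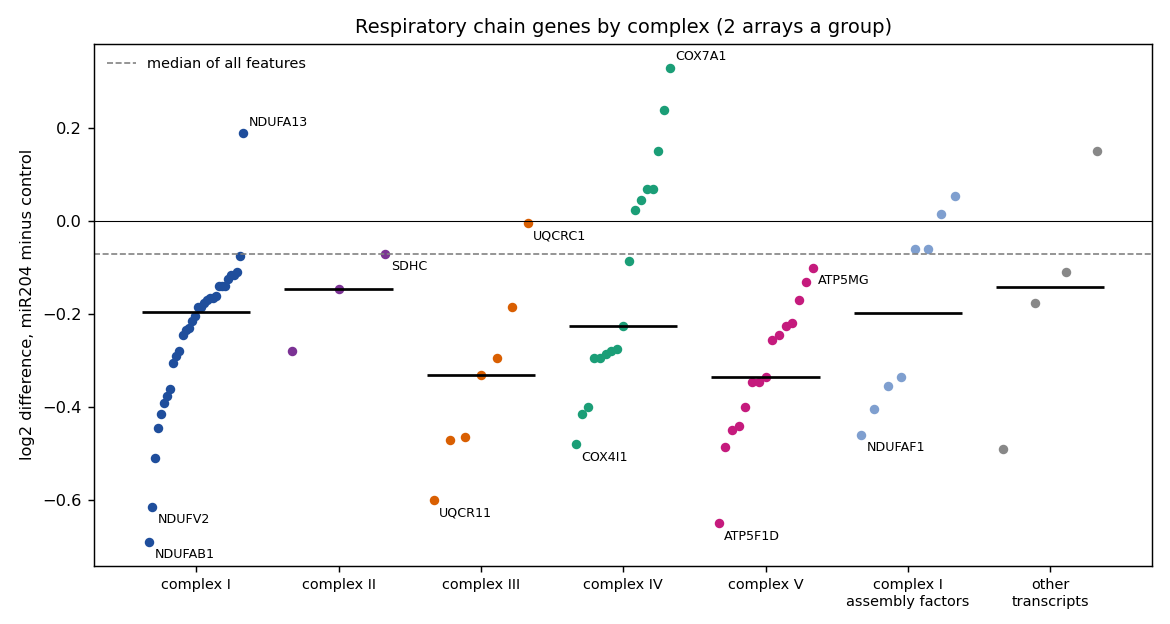
Each point is 1 gene, placed by complex, and the vertical axis is the log2 difference, miR204 minus control, from 2 arrays a group. The dashed line is the median of all features, -0.07; all 15 complex V genes and all 7 complex III genes lie below 0 on these deposited values, whereas 7 of 17 complex IV genes lie above 0.

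On the deposited values bright features of every kind tended to be lower in the miR204 arrays, and most members are bright. Among features with a mean level of 8 to 10, the median difference was -0.28 over 36 members and -0.215 over all 2833 features, and 12 members (33.3%) were lower at an unadjusted p under 0.05 against 24.2% of those features. At 10 and above the median was -0.225 over 17 members and -0.205 over all 605 features. Here 1 member (5.88%) was lower at that p, against 16.7% of features. At 6 to 8 the median was -0.28 over 24 members and -0.15 over 6037 features, with 5 members (20.8%) lower against 18.9%. Under 6 it was 0.055 over 9 members and 0.025 over 11973 features, with 0 lower against 6.76%. After quantile normalization the medians at 8 to 10 were -0.055 over members and -0.013 over all features. At 10 and above they were -0.002 and -0.026.

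The 2 miR204 arrays were not alike in these genes. The first had lower values than the second for 63 of 86 members. Without miR204 replicate 1, the median over members at levels of 8 to 10 was -0.165, and over all features of that band it was also -0.165. The values of all features correlated at r = 0.986 between the miR204 arrays and 0.995 between the controls, and their standard deviation was 2.08 and 2.13 in the miR204 arrays against 2.20 and 2.21 in the controls. The part of these array differences in the members' differences was not tested beyond the scalings given here. Array values are relative within an RNA sample, so amounts of RNA per cell were not measured.

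**Figure D2:**
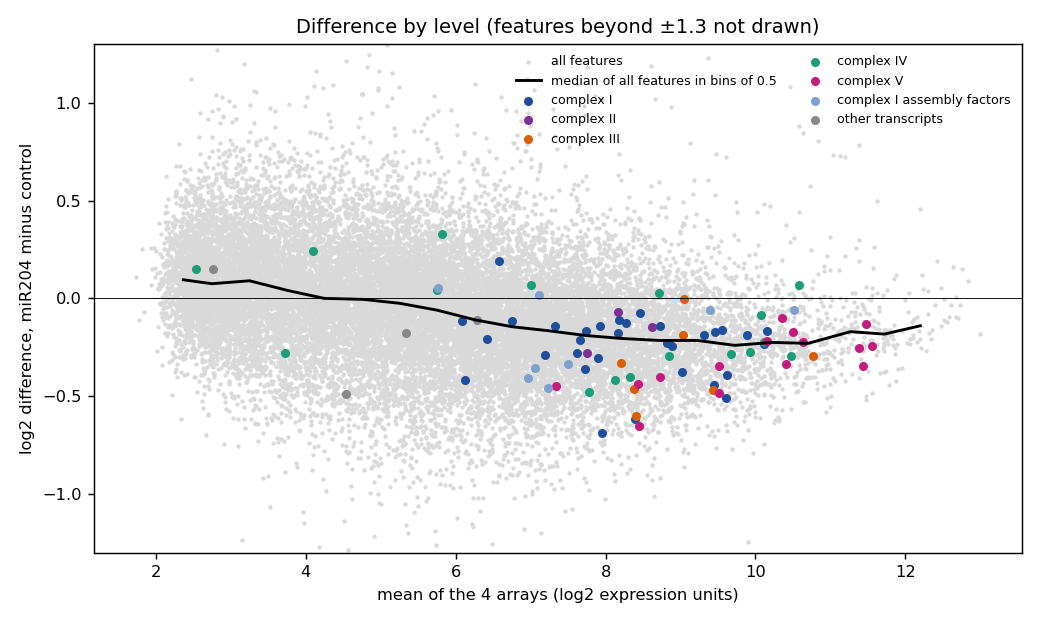
Each grey point is 1 of 21448 features and each coloured point 1 respiratory chain gene; the horizontal axis is the mean of the 4 arrays (log2) and the vertical axis the log2 difference, miR204 minus control, with features beyond the axis limits not drawn. The black line, the median of all features in bins of level, falls below 0 at higher levels, where most members lie.

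Promoters are shown for the gene with the most negative statistic in each of complexes I, III, IV and V that has an entry in the RefSeq promoter table: NDUFAB1, UQCR11, COX4I1 and ATP5F1A. They are the 250 bases before the most upstream start, 5′ to 3′ on the gene's strand, on GRCh38.p14: chr16:23596317-23596566 minus for NDUFAB1, chr19:1605463-1605712 minus for UQCR11, chr16:85799445-85799694 plus for COX4I1 and chr18:46104228-46104477 minus for ATP5F1A. Capitals mark matches, on either strand, to 4 motifs known from promoters of respiratory genes: GCGCANGCG of NRF1, CCGGAAG of ETS factors such as GABP, AAGATGG of YY1 and GGGCGG of Sp1.
NDUFAB1 promoter: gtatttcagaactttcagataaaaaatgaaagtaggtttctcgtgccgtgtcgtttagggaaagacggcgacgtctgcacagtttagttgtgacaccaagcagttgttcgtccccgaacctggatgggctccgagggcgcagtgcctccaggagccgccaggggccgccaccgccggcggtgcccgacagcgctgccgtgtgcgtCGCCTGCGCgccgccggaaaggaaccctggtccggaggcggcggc
UQCR11 promoter: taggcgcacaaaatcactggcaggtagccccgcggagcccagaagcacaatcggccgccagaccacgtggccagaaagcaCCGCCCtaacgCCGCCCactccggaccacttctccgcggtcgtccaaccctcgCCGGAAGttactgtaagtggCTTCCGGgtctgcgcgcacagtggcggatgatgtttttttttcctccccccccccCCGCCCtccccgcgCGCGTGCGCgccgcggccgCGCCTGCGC
COX4I1 promoter: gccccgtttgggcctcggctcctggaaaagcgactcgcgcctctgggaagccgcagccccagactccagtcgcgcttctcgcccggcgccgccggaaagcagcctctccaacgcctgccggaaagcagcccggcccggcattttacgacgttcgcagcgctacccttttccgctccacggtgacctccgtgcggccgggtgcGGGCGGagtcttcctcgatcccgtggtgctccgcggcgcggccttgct
ATP5F1A promoter: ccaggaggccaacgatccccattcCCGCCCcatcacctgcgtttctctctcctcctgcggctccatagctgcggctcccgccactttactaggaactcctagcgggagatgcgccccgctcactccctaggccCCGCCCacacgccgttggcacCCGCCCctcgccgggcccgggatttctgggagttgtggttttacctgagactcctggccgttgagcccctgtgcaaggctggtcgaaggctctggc
Within these 250 bases UQCR11 holds NRF1, ETS and Sp1 letters, NDUFAB1 NRF1 letters alone, and COX4I1 and ATP5F1A Sp1 letters alone. In the longer window counted below, which runs past the start, COX4I1 also holds ETS letters. A match is a description of letters, not a site in use.

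Of the 86 members, 70 had a promoter in the table, and windows of 250 bases before to 50 after the start were searched, with each motif counted apart so that matches of different motifs may overlap. NRF1 letters stood in 30.0% of the 70 members' windows, 8.05% of those of all 27305 genes and 11% of those of 15843 protein-coding genes. ETS letters stood in 27.1%, 10.6% and 14.2% of these windows, YY1 letters in 21.4%, 6.03% and 6.36%, and Sp1 letters in 54.3%, 44.5% and 58.3%. Expression differences were set beside the letters as a description, with no test. The median log2 difference was -0.225 over 21 members with NRF1 letters and -0.28 over 49 without. It was -0.29 over 19 members with ETS letters and -0.23 over 51 without, and -0.175 over 15 with YY1 letters and -0.28 over 55 without. For Sp1 letters it was -0.225 over 38 with and -0.262 over 32 without. After quantile normalization the medians with and without letters were -0.035 and -0.088 for NRF1, -0.106 and -0.038 for ETS, -0.006 and -0.091 for YY1, and -0.019 and -0.05 for Sp1.

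Complex I, the NADH dehydrogenase, had 31 of 32 subunits below 0 on the deposited values and 17 of 32 after quantile normalization, with a median difference of -0.195 on the deposited values. NDUFAB1, the mitochondrial acyl carrier protein that is also a complex I subunit, had 7.43 and 7.79 in the miR204 arrays, against 8.35 and 8.25 in the controls. The groups did not overlap, and the difference was -0.69 (SE 0.172, limma adjusted p = 0.167), a ratio of 0.62. NDUFA11, a subunit of the membrane arm, had 9.24 and 9.46 in the miR204 arrays and 9.83 and 9.89 in the controls, a difference of -0.51 (SE 0.152, limma adjusted p = 0.192). NDUFV1, which binds NADH and passes its electrons to a flavin, had 9.46 and 9.40 in the miR204 arrays and 9.78 and 9.86 in the controls, a difference of -0.39 (SE 0.141, limma adjusted p = 0.234). In both, all miR204 values lay below all control values.

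NDUFV2, the iron-sulphur partner of NDUFV1, was singled out after its values were seen. Its miR204 values were 7.50 and 8.66, against 8.72 and 8.67 in the controls, a difference of -0.615 (SE 0.344, limma adjusted p = 0.39). A single array carried it: without miR204 replicate 1 the difference was -0.035. NDUFA13, a membrane-arm subunit also known as GRIM19, was the exception in direction, with 6.65 and 6.70 in the miR204 arrays against 6.45 and 6.52 in the controls. Its groups did not overlap, and the difference was 0.19 (SE 0.14, limma adjusted p = 0.508). The brightest complex I feature, NDUFB5, had 10.09 and 10.06 in the miR204 arrays and 10.29 and 10.19 in the controls, and its difference of -0.165 became 0.077 after quantile normalization. The dimmest, NDUFA5, had 5.90 and 6.15 in the miR204 arrays and 5.97 and 6.31 in the controls, with overlapping groups.

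By family, the 11 NDUFB genes, all of the membrane arm, were all below 0 on the deposited values, with a median of -0.245. Of these 11, 9 were lower without overlap, where 33.8% of all features were lower without overlap and 16.5% higher. The share lower was 46.4% of all features at levels of 6 to 8, 64.2% at 8 to 10 and 71.1% at 10 and above. The 12 NDUFA genes, accessory subunits of both arms, had a median of -0.162 with 7 lower without overlap and 1 higher. The 5 NDUFS genes, most of them subunits of the electron-carrying arm, had a median of -0.17, and the 3 NDUFV genes one of -0.39. Among them, NDUFS7, which holds the last iron-sulphur cluster before coenzyme Q, had 5.65 and 6.17 in the miR204 arrays and 6.28 and 6.37 in the controls.

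The 8 NDUFAF assembly factors, which help to build complex I and are not part of it, had a median of -0.198, with 6 below 0 on the deposited values and 4 after quantile normalization. NDUFAF1, which helps to build the membrane arm, had 7.13 and 6.88 in the miR204 arrays and 7.45 and 7.48 in the controls, a difference of -0.46 (SE 0.154, limma adjusted p = 0.218). NDUFAF2, a chaperone of late assembly, had 6.70 and 6.81 in the miR204 arrays and 7.27 and 7.05 in the controls, a difference of -0.405 (SE 0.154, limma adjusted p = 0.247). For NDUFAF1, NDUFAF2 and NDUFAF4 the groups did not overlap on the deposited values. NDUFAF4 had 7.19 and 7.48 in the miR204 arrays and 7.67 and 7.67 in the controls. NDUFAF5, which modifies NDUFS7 in human cells, had 6.09 and 5.50 in the miR204 arrays and 5.64 and 5.84 in the controls, with the control values between the miR204 ones.

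Complex II, succinate dehydrogenase, which also works in the citric acid cycle, had the smallest median of the 5 complexes, -0.145 over 3 subunits on the deposited values, and 0.056 after quantile normalization. SDHA, the flavoprotein that oxidises succinate, had 7.61 and 7.61 in the miR204 arrays, against 7.86 and 7.92 in the controls. Its groups did not overlap, with a difference of -0.28 (SE 0.139, limma adjusted p = 0.342). The membrane anchors differed less: SDHC had 8.02 and 8.23 in the miR204 arrays and 8.05 and 8.34 in the controls, with overlap. SDHD had 8.50 and 8.60 in the miR204 arrays and 8.65 and 8.74 in the controls, without overlap but with the difference of -0.145 turning to 0.056 after quantile normalization.

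In complex III, the cytochrome bc1 complex, all 7 subunits were below 0 on the deposited values and 5 of 7 after quantile normalization, with medians of -0.33 and -0.142. Without miR204 replicate 1 the deposited values gave -0.185. The 3 largest differences were in small accessory subunits. UQCR11 had 8.06 and 8.16 in the miR204 arrays, against 8.69 and 8.73 in the controls, a difference of -0.60 (SE 0.142, limma adjusted p = 0.161). UQCRQ had 9.12 and 9.28 in the miR204 arrays and 9.69 and 9.65 in the controls, a difference of -0.47 (SE 0.146, limma adjusted p = 0.202). UQCR10 had 7.93 and 8.36 in the miR204 arrays and 8.74 and 8.48 in the controls, a difference of -0.465 (SE 0.194, limma adjusted p = 0.279). In all 3 the groups were apart, by the least in UQCR10. UQCRB, also a small accessory subunit, had 8.72 and 9.15 in the miR204 arrays and 9.25 and 8.99 in the controls. Its groups overlapped, with a difference of -0.185.

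The core proteins of complex III differed less than UQCR11, UQCRQ and UQCR10, though UQCRC2 differed more than UQCRB. UQCRC2 had 10.51 and 10.73 in the miR204 arrays and 10.91 and 10.92 in the controls, a difference of -0.295. UQCRC1 had 9.07 and 9.03 in the miR204 arrays and 8.93 and 9.18 in the controls, so that its miR204 values lay between the control values, and its difference of -0.005 became 0.201 after quantile normalization. UQCRH, the hinge protein that helps cytochrome c to bind, was the dimmest, with 7.88 and 8.19 in the miR204 arrays and 8.35 and 8.38 in the controls.

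**Figure D3:**
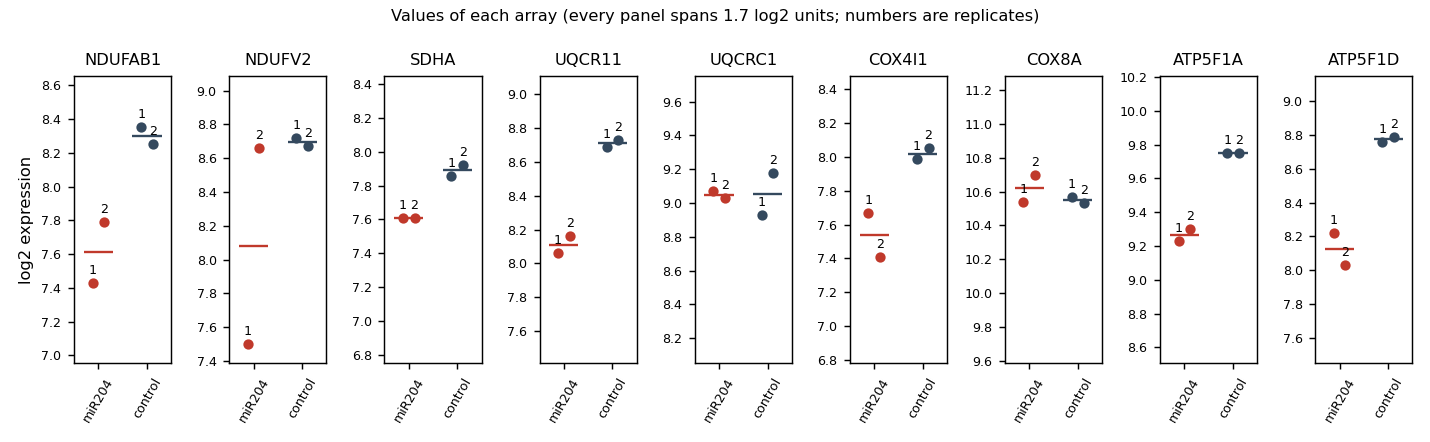
Each panel is 1 gene, with the miR204 arrays on the left and the control arrays on the right; points are single arrays, digits their replicate number, lines the group means, and every vertical axis spans the same number of log2 units. NDUFAB1, UQCR11, COX4I1, ATP5F1A and ATP5F1D have all miR204 values below all control values, NDUFV2 has 1 miR204 array far below the other 3, and UQCRC1 overlaps.

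In complex IV, cytochrome c oxidase, the sign differed between isoform classes, less so after rescaling. Of 11 subunits used in most tissues, 9 were below 0 on the deposited values, with a median of -0.285, whereas of 6 tissue-restricted isoforms 1 was below 0, with a median of 0.11. After quantile normalization 7 of the 11 were below 0, with a median of -0.059, and 1 of the 6, with a median of 0.166. Over all 17 the median was -0.225 on the deposited values, 0.009 after quantile normalization and -0.035 on the deposited values without miR204 replicate 1. The tissue-restricted features are dimmer, with mean levels from the percentile 4.2 to 71.3 among all features, against 81.5 to 98.5 for their ubiquitous counterparts. Over all features with a mean level under 6 the median was 0.025, and the part of brightness in this split was not tested.

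COX4I1, the ubiquitous form of a subunit that joins the complex early, had 7.67 and 7.41 in the miR204 arrays, against 7.99 and 8.05 in the controls. The groups did not overlap, and the difference was -0.48 (SE 0.156, limma adjusted p = 0.212). Its lung isoform COX4I2 had 5.46 and 6.09 in the miR204 arrays, around the 5.67 and 5.79 of the controls. COX7A2, the liver-type form of subunit 7A found in most tissues, had 7.95 and 7.89 in the miR204 arrays and 8.27 and 8.40 in the controls, a difference of -0.415 (SE 0.144, limma adjusted p = 0.224). Its heart and muscle isoform COX7A1 had 6.13 and 5.84 in the miR204 arrays and 5.66 and 5.65 in the controls, a difference of 0.33 (SE 0.159, limma adjusted p = 0.332). COX7A1 and COX7A2 were thus both without overlap and opposite in sign, and COX7A1 gave 0.185 without miR204 replicate 1. COX7A2L, a related protein that joins complexes III and IV, had 9.94 and 10.12 in the miR204 arrays and 10.10 and 10.13 in the controls, with overlap.

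The other isoform pairs gave smaller contrasts. COX6A1 had 10.02 and 10 in the miR204 arrays and 10.21 and 10.26 in the controls, and its heart and muscle isoform COX6A2 had 7.08 and 7.01 in the miR204 arrays and 6.97 and 6.98 in the controls. Neither pair of groups overlapped, but the difference of -0.225 for COX6A1 was 0.009 after quantile normalization. COX6B1 had 10.22 and 10.44 in the miR204 arrays and 10.62 and 10.63 in the controls, while its testis isoform COX6B2 had 3.19 and 3.98 in the miR204 arrays and 3.65 and 4.08 in the controls, with overlap. COX7B had 9.39 and 9.67 in the miR204 arrays and 9.81 and 9.82 in the controls, against 2.71 and 2.51 in the miR204 arrays and 2.52 and 2.40 in the controls for its testis isoform COX7B2. Subunit 8 was the pair in which neither form was lower: COX8A had 10.54 and 10.70 in the miR204 arrays and 10.57 and 10.53 in the controls. COX8C, the testis form, had 4.49 and 3.94 in the miR204 arrays and 4.28 and 3.67 in the controls, and the groups overlapped in both.

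**Figure D4:**
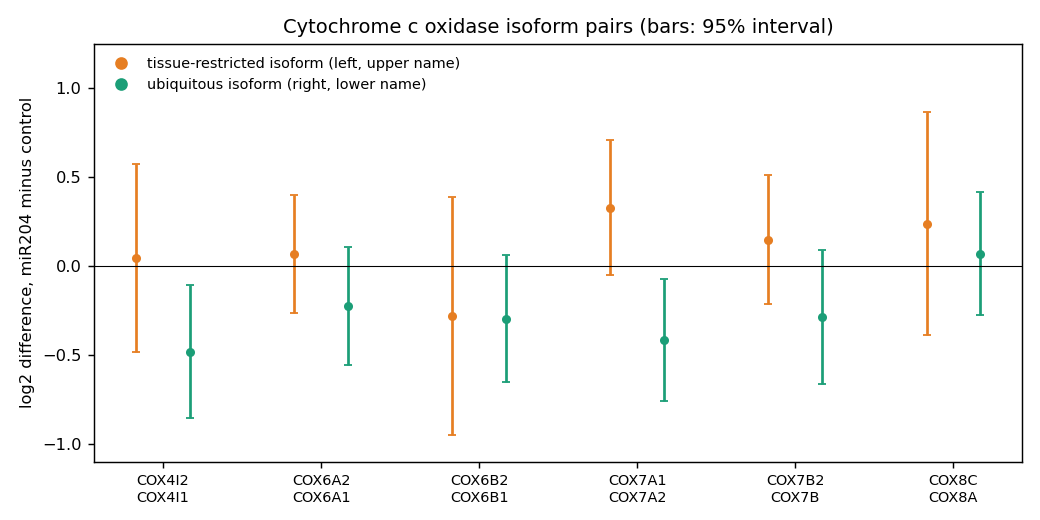
The vertical axis is the log2 difference, miR204 minus control, for 6 isoform pairs of cytochrome c oxidase, each with the tissue-restricted form on the left and the ubiquitous form on the right; bars are 95% intervals from limma. COX7A1 at 0.33 and COX7A2 at -0.415 stand farthest apart of the 6 pairs, and the intervals of COX4I1 and COX7A2 alone leave out 0.

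Among the other ubiquitous subunits, COX5B, which binds zinc on the matrix side, had 8.02 and 8.23 in the miR204 arrays and 8.47 and 8.58 in the controls, a difference of -0.40 (SE 0.153, limma adjusted p = 0.249). A further subunit tied to complex IV, NDUFA4, carries the newer symbol COXFA4 on this array and so was not taken in by the prefixes. It had 9.82 and 10.20 in the miR204 arrays and 10.63 and 10.62 in the controls, without overlap and with a difference of -0.615 (SE 0.173, limma adjusted p = 0.183).

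In complex V, the ATP synthase, all 15 subunits were below 0 on the deposited values and had no overlap between groups. Lower without overlap were 33.8% of all features, but 64.2% of those at levels of 8 to 10, which hold 5 of the 15, and 71.1% of those at 10 and above, which hold 9. After quantile normalization 12 of 15 were below 0, and the medians were -0.335 on the deposited values and -0.134 after it. Without miR204 replicate 1 the deposited values gave -0.195. Of the 18 members lower at an unadjusted p under 0.05, 6 were of this complex, 40% of its 15 against 12.8% of all features. At levels of 8 to 10 and of 10 and above, 24.2% and 16.7% of all features were lower at that p. After quantile normalization ATP5F1D alone of the 15 was, where 7.1% of all features were lower at that p.

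The catalytic head and its central stalk held the lowest statistic of all members. ATP5F1D, the delta subunit of the central stalk, had 8.22 and 8.03 in the miR204 arrays, against 8.76 and 8.79 in the controls, a difference of -0.65 (SE 0.148, limma adjusted p = 0.157) and a ratio of 0.637. ATP5F1A, the alpha subunit of the head, had 9.23 and 9.30 in the miR204 arrays and 9.75 and 9.75 in the controls, a difference of -0.485 (SE 0.14, limma adjusted p = 0.188). ATP5F1B, the catalytic beta subunit and the brightest of the members, had 11.32 and 11.53 in the miR204 arrays and 11.64 and 11.70 in the controls, a smaller difference of -0.245.

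The membrane part was lower by similar amounts. ATP5MC1, ATP5MC2 and ATP5MC3 encode the same mature c subunit, the rotor ring through which protons pass, behind different targeting sequences. ATP5MC1 had 11.22 and 11.32 in the miR204 arrays and 11.63 and 11.60 in the controls, a difference of -0.345 (SE 0.141, limma adjusted p = 0.272). ATP5MC2 had 10.19 and 10.29 in the miR204 arrays and 10.48 and 10.67 in the controls, a difference of -0.335 (SE 0.15, limma adjusted p = 0.304). ATP5MC3 had 8.14 and 8.28 in the miR204 arrays and 8.64 and 8.66 in the controls, a difference of -0.44 (SE 0.144, limma adjusted p = 0.212). All 3 c-subunit genes were thus apart between groups. With quantile normalization and the intensity trend combined, ATP5MC1 was at -0.234 (limma adjusted p = 0.0432), 1 of 86 members called lower (1.16%) where 1.19% of all features were.

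ATP5ME, subunit e at the dimer interface, was the dimmest of complex V, with 7.01 and 7.21 in the miR204 arrays and 7.60 and 7.52 in the controls, a difference of -0.45 (SE 0.15, limma adjusted p = 0.217). ATP5MG, subunit g beside it, had 10.33 and 10.30 in the miR204 arrays and 10.49 and 10.34 in the controls, the smallest difference of the complex, -0.10, which was 0.098 after quantile normalization. The 4 genes of the peripheral stalk, which holds the head still, had a median of -0.198.

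The differences between complexes depended on the scaling. After quantile normalization the medians were -0.009 for complex I, 0.056 for complex II, -0.142 for complex III, 0.009 for complex IV and -0.134 for complex V, beside -0.004 for all features. Across the deposited values, quantile normalization, equal array medians and cyclic loess, 48 of 86 members were below 0 under every scaling and 11 above. Without overlap and lower under all 4 were 26 members (30.2%), against 19.6% of all features. By mean level the shares were 0% of members and 13.2% of all features under 6, and 37.5% and 26.8% at 6 to 8. At 8 to 10 they were 30.6% and 29.8%, and at 10 and above 35.3% and 26.6%. The 26 were 9 of 15 in complex V, 3 of 7 in complex III, 6 of 32 in complex I, 4 of 17 in complex IV, 1 of 3 in complex II and 3 of 8 assembly factors.

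**Figure D5:**
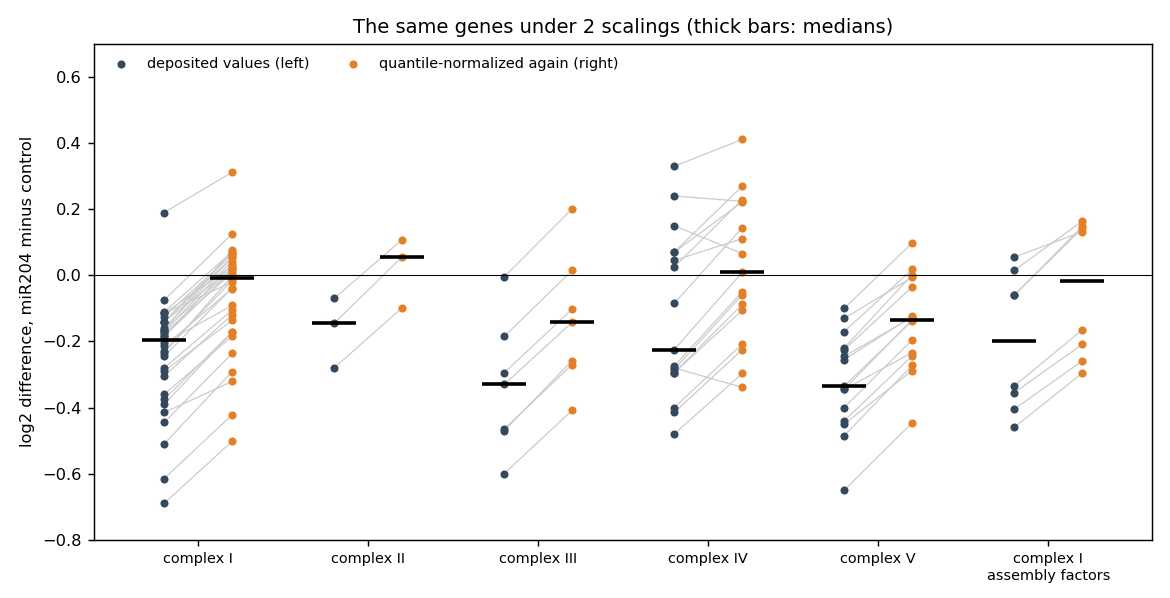
Each point is 1 gene, grouped by complex, with the deposited values on the left of each pair and the values quantile-normalized again on the right; the vertical axis is the log2 difference, miR204 minus control, and thick bars are medians. The medians of complexes III and V stay below 0, at -0.142 and -0.134 after quantile normalization, whereas those of complexes II and IV lie above it.

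Genes tied to the chain but outside the members were described from lists of 131 measured genes in all. CYC1 among them is a complex III subunit whose symbol the prefixes missed. Of the 131, 120 were below 0, with a median of -0.275, and 0 passed an adjusted p of 0.05 in either direction. At an unadjusted p under 0.05, 35 (26.7%) were lower, against 12.8% of all features. The median level over these lists was 7.74. Of all features at levels of 6 to 8, 71.8% were below 0 (median -0.15), and at 8 to 10, 82.5% (-0.215). The lists were not analysed under the other scalings. The assembly lists were of like size to the subunits. Below 0 were 10 of 11 other complex I factors (median -0.335) and 4 of 4 for complex II (-0.24). For complex III it was 5 of 6 (-0.175) and for complex IV 23 of 24 (-0.262). For complex V with its inhibitor it was 5 of 6 (-0.248). DMAC1, a complex I factor, had 8.23 and 8.22 in the miR204 arrays and 8.89 and 8.93 in the controls, the lowest adjusted p of these lists (-0.685, limma adjusted p = 0.144). COX18, which inserts a mitochondrially encoded subunit of complex IV, had the largest difference, with 5.03 and 5.71 in the miR204 arrays and 6.25 and 6.30 in the controls.

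CYC1, the cytochrome c1 of complex III, had 9.41 and 9.70 in the miR204 arrays and 9.81 and 9.98 in the controls. Its difference was -0.34. CYCS, cytochrome c itself, was at -0.29, and the median of the 2 was -0.315. Below 0 too were 11 of 13 genes of coenzyme Q synthesis (median -0.275), with COQ2 at -0.67 and COQ3 at -0.795. All 14 genes of the citric acid cycle and pyruvate dehydrogenase were below 0 (-0.285), among them citrate synthase, CS, at 10 in both miR204 arrays, to 2 decimals, and 10.55 and 10.58 in the controls. On the deposited values the same held for all 17 import genes (-0.32) and all 5 carriers and porins (-0.275). It also held for 8 of 10 genes of mitochondrial DNA upkeep (-0.32) and 10 of 11 chaperones and proteases (-0.185). Of the regulators of respiratory genes, 6 of 8 were below 0 (-0.227). PPRC1, a coactivator of NRF1-driven genes, was the lowest of the regulators at -0.665 (limma adjusted p = 0.169). The 13 subunits read from mitochondrial DNA had 0 features measured here. The cells carried keratin, vimentin, PAX8 and ABCB1 signal, while EPCAM and MUC16 were dim, with levels up to 3.87 and 4.86. All 9 markers of the line were below 0 (median -0.255). Of 3 endothelial markers, CDH5 had 7.01 and 7.03 in the miR204 arrays and 8.13 and 8.06 in the controls (limma adjusted p = 0.101), while PECAM1 and VWF were higher by 0.47 and 0.045 without passing the test. The 3 leukocyte markers measured had a median of 0.29, with PTPRC at 2.87 and 3.03 in the miR204 arrays and 2.90 and 2.77 in the controls, and the 3 fibroblast markers one of -0.095. The part of these in the members' differences was not tested.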

How the data were processed

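The deposited log2 expression values were made by the authors, per the submitters' processing notes, with RMA in Transcriptome Analysis Console 4.0. RMA corrects background, quantile-normalizes and summarises probes; its parameters and the build are not given in the sources used here. Values ran from 1.61 to 13.1. Detection was not analysed here, so a dim gene may be undetected, and levels of different genes' probes are brightness, not abundance.

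All 21448 features were fitted with limma 3.58.1 in R 4.3.3 (2 residual and 4.78 prior degrees of freedom), without a block, filter or floor, with Benjamini-Hochberg adjustment over the whole table. Symbols came from the platform annotation, with 3739 features unnamed. The fit was tested on simulated data. The members and lists were chosen with earlier results of these data known. Named members were, per complex, the 3 most negative and the 1 most positive statistic, and the brightest and the dimmest. The SDH genes and the isoform families were named too. NDUFV2, NDUFS7 and UQCRB lay outside this rule. From other pathway lists up to 2 genes were named; cell type markers were named outside that limit. Alternatives were other priors, scalings, level filters, a replicate block and leaving out each array. Promoters and the microRNA came from RefSeq tables; 16 members had no window, and protein sequences were not analysed here.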

Additional observations from a re-analysis of the deposited data

How the results depend on the processing

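The main limits are 2 arrays a group and a scale that differs with brightness between the groups; signal over background was not analysed here. Of 625 gene-by-setting results for 42 named members, 571 kept direction and side of the threshold, 18 passed it only under the alternative, and 36 turned sign. Members past an adjusted p of 0.05, all lower, numbered 0 on the deposited values, 14 with an intensity trend (16.3%, against 6.09% of all features), 5 of 80 in a fit of the brighter features, above the median level (6.25%, against 8.07%), and 1 with both quantile normalization and the trend (1.16%, against 1.19%). Members lower at an unadjusted p under 0.05 numbered 18 (20.9%, against 12.8% of all features), 40 with the trend (46.5%, against 17.5%), 28 above the median level (35%, against 27.2%), 3 with quantile normalization (3.49%, against 7.1%), 3 with cyclic loess (3.49%, against 6.93%) and 2 to 34 with 1 array left out (2.33% to 39.5%, against 2.72% to 17.5%), so the members' excess was lost under both of these scalings and without control replicate 1. Higher ones numbered 0 (against 5.11% of all features), 2 with quantile normalization (2.33%, against 6.57%) and 2 with cyclic loess (2.33%, against 6.97%). With quantile normalization and the trend there were 3 (3.49%, against 7.89%), and with equal array medians 1 (1.16%, against 7.49%). The ordinary test gave 1 (1.16%, against 3.09%). The fit above the median level gave 1 of 80, where 4.31% of its features were higher. In each of these settings the members' share was below that of all features. Members without overlap and lower numbered 59 (68.6%, against 33.8% of all features), 29 with quantile normalization (33.7%, against 23.9%) and 27 with cyclic loess (31.4%, against 23.4%). Medians with quantile normalization (with or without the trend), then with cyclic loess, were -0.039 and -0.03 over all members, -0.009 and -0.017 in complex I, 0.056 and 0.066 in complex II, -0.142 and -0.126 in complex III, 0.009 and -0.011 in complex IV, -0.134 and -0.122 in complex V, and -0.016 and -0.011 for assembly factors. With 1 array left out, medians ran from -0.485 to -0.185 in complex III, -0.27 to -0.035 in complex IV and -0.375 to -0.195 in complex V. Of all 86 members, 75 were below 0 on the deposited values, and 50 with quantile normalization and with cyclic loess. Among the 42 named members alone, some turned sign with quantile normalization (with or without the trend), then with cyclic loess. They were NDUFB5 (0.077 and 0.049), SDHC (0.107 and 0.133), SDHD (0.056 and 0.066), COX7A2L (0.144 and 0.129) and ATP5MG (0.098 and 0.113). UQCRC1 did so too (0.201 and 0.208, and 0.06 with equal array medians), and COX6A1 with quantile normalization but not cyclic loess (0.009). Outside the 42, UQCRB also turned sign (0.015 and 0.028). With 1 array left out, ranges among the 42 crossed 0 for NDUFA5 (-0.285 to 0.055), SDHC (-0.215 to 0.075) and UQCRC1 (-0.13 to 0.12). They also did for COX4I2 (-0.27 to 0.36), COX6B2 (-0.675 to 0.115) and COX8C (-0.065 to 0.545). The others were COX7A2L (-0.175 to 0.005), COX8A (-0.01 to 0.15) and NDUFAF5 (-0.24 to 0.35). The cause was not tested. The replicate block gave 13 members lower at an unadjusted p under 0.05 (15.1%, against 10.7%) and 0 past an adjusted p of 0.05. Same-numbered arrays deviated with a correlation of 0.00579 over all features. This shows no shared deviation, but it cannot show whether same-numbered arrays shared a culture or a day. A lone array was taken to vary as the other group does.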
